A study of Mus musculus with 16 samples.

Results

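The contractile genes of smooth muscle were followed through 6 groups of mouse male germ cell libraries. The 10 genes were taken by symbol, each on 1 row, from 22293 genes with a unique symbol: Acta2, Actg2, Tagln, Cnn1, Tpm1, Tpm2, Myh11, Myl9, Des and Pdlim3. They are markers of peritubular myoid cells and were chosen by their FPKM in isolated knockout and wildtype spermatogonia, which was already known. The values from isolated spermatogonia are therefore a description, with no test. The 16 libraries came from male mice of strain C57;ICR and were either knockout for miR-202, the microRNA in the title of the series, or wildtype. Isolated spermatogonia of pups at 6 to 7 days after birth gave 2 knockout and 2 wildtype libraries. Spermatogonial stem cells of pups of that age, cultured in medium with GDNF and bFGF, gave 3 knockout and 3 wildtype libraries. Isolated spermatocytes of adults gave 3 knockout and 3 wildtype libraries. The design text calls the replicates biological, and the labels give neither the way cells were isolated nor the allele behind the knockout. Neither do they tell whether animals were pooled or whether the cultures held other cells.

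Smooth muscle cells shorten when myosin heads pull on actin filaments. Calcium bound to calmodulin activates myosin light chain kinase, which phosphorylates the regulatory light chains and so starts the cycle. Around each seminiferous tubule lies a layer of flattened peritubular myoid cells that carry this machinery, and their contraction moves sperm and fluid along the tubule. In many smooth muscle genes the serum response factor Srf and its coactivator myocardin act through CArG boxes, 10-base elements with C bases at one end, G bases at the other and A or T bases between them.

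Levels are in FPKM, which divides the fragments of a gene by transcript length and by the mapped fragments of the library, so genes can be compared per length. The sum of FPKM per library lay between 262109 and 395564, and between 9494 and 12040 rows were at 1 FPKM or above. Counting precision is unknown, since the sources used here give no number of reads. Mir202 itself was listed at 0 in all 16 libraries, which leaves the genotype labels unchecked by it. The germ cell markers Ddx4 (60.02 to 251 FPKM) and Sycp3 (41.6 to 225 FPKM) were present in every library. Sertoli cell genes, which mark the supporting cells of the tubule, were high in isolated spermatogonia as well: their summed level was 1179 to 1394 FPKM in knockout libraries and 1233 to 1821 FPKM in wildtype libraries. Since these are bulk samples, fewer cells of a type and less RNA per cell cannot be told apart.

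Acta2 and Actg2 encode the smooth muscle actins, which belong to a family of closely similar genes. The start of their coding sequences is shown with that of Actb, the cytoplasmic actin of nearly all cells, because reads from a shared stretch could be assigned to any of them. The sequences are the first 60 coding bases from GENCODE M21 on GRCm38, with bases that differ from Acta2 in a pairwise alignment in capitals.
Acta2: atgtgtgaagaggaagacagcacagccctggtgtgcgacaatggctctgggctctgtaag
Actg2: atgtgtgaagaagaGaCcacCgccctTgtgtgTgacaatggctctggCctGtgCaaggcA
Actb: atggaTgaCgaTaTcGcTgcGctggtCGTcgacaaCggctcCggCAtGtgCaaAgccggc
Over the whole coding sequence, Acta2 and Actg2 were identical at 84.2% of aligned bases, with 29 bases in the longest shared run. For Acta2 and Actb the identity was 82.8% and the longest shared run 47 bases. The sources used here do not tell how shared reads were assigned, and low levels of 1 actin beside a high level of another are therefore uncertain.

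In isolated spermatogonia, 9 of the 10 genes were lower in every knockout library than in every wildtype library. Such a separation held for 34.9% of the 11997 genes tested in these cells. The knockout mean was between 12.7% (Myh11) and 90.5% (Cnn1) of the wildtype mean, with a median of 28.7%. Summed over the 10 genes, the level was 114 and 108 FPKM in knockout libraries, against 323 and 403 FPKM in wildtype libraries.

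Acta2, the alpha actin of thin filaments, had 15.2 and 12.2 FPKM in knockout spermatogonia, against 87.0 and 126.7 FPKM in wildtype spermatogonia. Its log2 difference on the log2(FPKM + 1) scale was -2.86, the furthest below 0 of the 10. Actg2, the gamma actin of visceral smooth muscle, had 0.373 and 0.553 FPKM in knockout and 2.46 and 1.85 FPKM in wildtype spermatogonia. Both actins were thus lower in the knockout libraries, without overlap. Tpm1, a tropomyosin that lies along the actin filament, had 61.6 and 53.6 FPKM in knockout, against 109 and 117 FPKM in wildtype spermatogonia. Tpm2, a second tropomyosin gene, had 1.46 and 1.65 FPKM in knockout, against 4.60 and 7.31 FPKM in wildtype spermatogonia. The knockout mean was 50.9% of the wildtype mean for Tpm1 and 26.2% for Tpm2.

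Tagln, the actin-binding protein transgelin, had 10.04 and 8.75 FPKM in knockout, against 25.1 and 31.0 FPKM in wildtype spermatogonia. Cnn1, calponin, another actin-binding protein, had 1.70 and 1.67 FPKM in knockout and 2.31 and 1.41 FPKM in wildtype spermatogonia. It was the member whose knockout and wildtype libraries overlapped in these cells, with both knockout values between the wildtype ones.

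Myh11, the smooth muscle myosin heavy chain, had 1.04 and 0.674 FPKM in knockout, against 6.02 and 7.52 FPKM in wildtype spermatogonia. Myl9, a regulatory light chain of that myosin, had 18.3 and 24.5 FPKM in knockout, against 62.3 and 74.9 FPKM in wildtype spermatogonia. The RNA of both these chains of the motor was thus lower, with knockout means at 12.7% and 31.2% of the wildtype means. Des, desmin, the intermediate filament protein of muscle, had 1.21 and 1.45 FPKM in knockout, against 3.36 and 4.28 FPKM in wildtype spermatogonia. Pdlim3, a PDZ and LIM domain protein that binds alpha-actinin, had 3.57 and 3.40 FPKM in knockout, against 20.1 and 31.0 FPKM in wildtype spermatogonia. The median log2 difference of the 10 genes was -1.45, beside -0.06 over all genes tested.

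**Figure D1:**
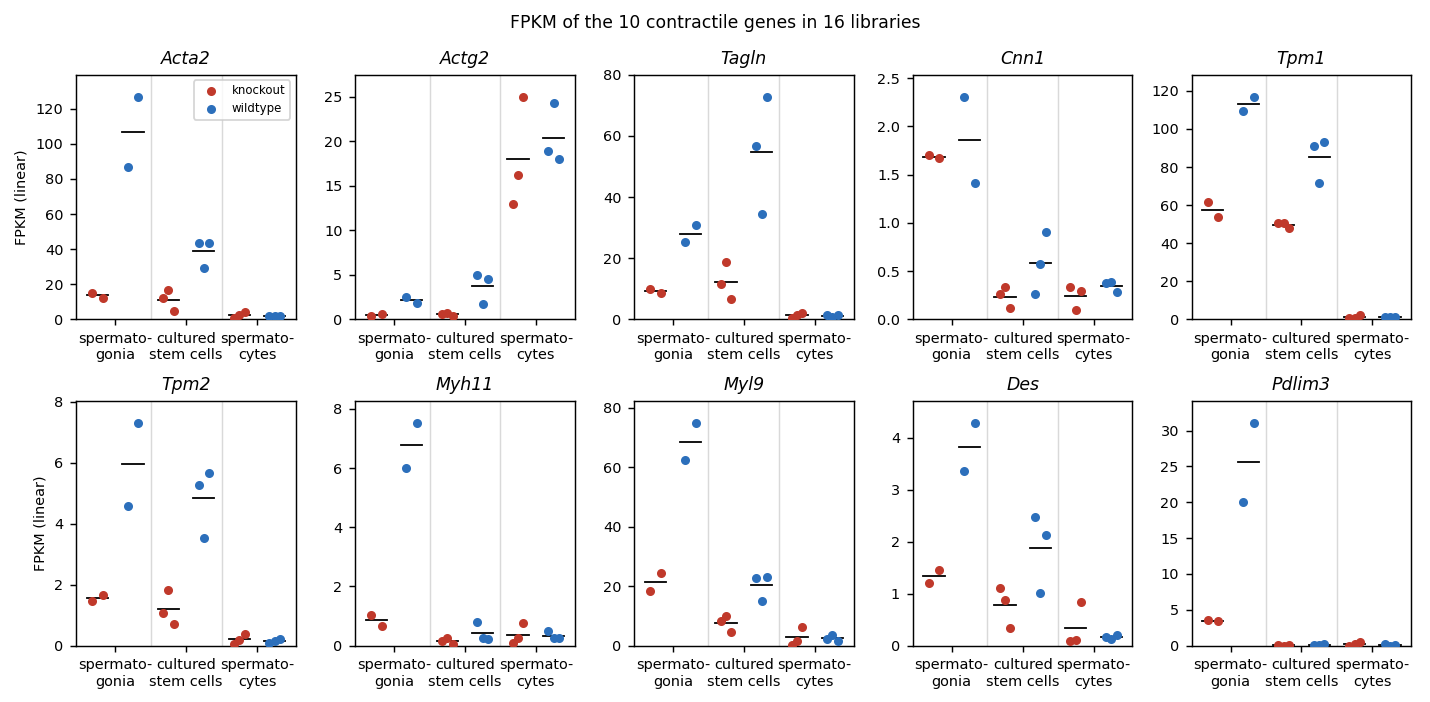
Each panel gives 1 gene in FPKM on a linear axis that starts at 0; points are libraries, lines are group means, red is knockout and blue wildtype. Knockout points lie below wildtype points in spermatogonia for 9 genes and in cultured stem cells for 6, and Actg2 is the gene with its highest values in spermatocytes.

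Fibroblast genes moved with the contractile genes in isolated spermatogonia. Every one of the 10 fibroblast markers had lower values in both knockout libraries than in both wildtype libraries, beside 34.9% of all genes tested. The markers summed to 196 to 208 FPKM in knockout and 536 to 681 FPKM in wildtype libraries, and none was at 0 in every library. Of the 9 that were tested, 6 fell and 0 rose (of all genes tested, 5.76% fell and 0.917% rose), among them the collagen gene Col1a2 with 50.5 ± 2.23 FPKM in knockout and 171 ± 25.7 FPKM in wildtype libraries (SD, n = 2 each; log2 fold change -1.73, SE 0.36, limma adjusted p = 0.00863). Of 5 pericyte and vascular smooth muscle markers tested, 2 fell and 0 rose, and both of these were under 1 FPKM in every knockout library, so that they were tested through the wildtype libraries alone. The sum of all 8 such markers, mostly from Mcam, an adhesion protein, was 112 to 118 FPKM in knockout and 101 to 114 FPKM in wildtype libraries. Mcam alone had 114 and 107 FPKM in knockout and 93.2 and 103 FPKM in wildtype libraries, and the sum mainly follows it. Of the 8 markers, 4 were lower in both knockout libraries than in both wildtype libraries (34.9% of all genes tested were). Mcam alone was higher in both. Striated muscle markers summed to 11.05 to 13.9 FPKM in knockout and 13.7 to 15.01 FPKM in wildtype libraries, and 1 of the 3 tested, the cardiac troponin gene Tnnt2, fell. No marker of Sertoli, Leydig, endothelial or macrophage cells passed the test in spermatogonia, where 9, 5, 6 and 1 of them were tested. Their median log2 fold changes were -0.37, 0.24, 0.28 and -0.33, beside -0.06 over all genes tested. Of the 9 Sertoli markers, 3 were lower in both knockout libraries than in both wildtype libraries. The part of these cell types in the lower contractile genes was not tested.

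Earlier results of these data were known when the genes and tests were chosen, which limits the next comparison as an independent check. It set knockout against wildtype cultured stem cells, whose libraries were not those by which the genes were chosen. There, 5 of the 7 contractile genes that could be tested fell in the knockout and 0 rose (limma, Benjamini-Hochberg adjusted p under 0.05), 1 of the 5 (Actg2) having passed the filter on low values through wildtype libraries alone. Of all 12046 genes tested, 5.84% fell and 0.324% rose. In these cells 6 of the 10 genes had every knockout library below every wildtype library, beside 11.7% of all genes tested. Cnn1, Myh11 and Pdlim3 did not reach 1 FPKM in 2 libraries, which the test required. A gene that reaches it through wildtype libraries alone, as Actg2 did, has to differ to some degree once tested.

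Tagln had 11.5, 18.7 and 6.60 FPKM in knockout cultures, against 56.6, 34.5 and 72.8 FPKM in wildtype cultures. Each knockout value was lower than each wildtype value, and the spread was wide in both groups. The log2 fold change was -2.11 (SE 0.33, limma adjusted p = 0.000963). Tpm2 had 1.06, 1.81 and 0.709 FPKM in knockout cultures, against 5.27, 3.54 and 5.68 FPKM in wildtype cultures. Its groups did not overlap, and the log2 fold change was -1.42 (SE 0.20, adjusted p = 0.000552).

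Acta2 had 12.0, 17.0 and 4.57 FPKM in knockout cultures, against 43.7, 29.5 and 43.3 FPKM in wildtype cultures. The groups did not overlap, and the log2 fold change was -1.85 (SE 0.39, adjusted p = 0.00748). Actg2 had 0.610, 0.699 and 0.367 FPKM in knockout cultures, against 4.96, 1.69 and 4.48 FPKM in wildtype cultures, a log2 fold change of -1.52 (SE 0.27, adjusted p = 0.00249). Every knockout value of Actg2 was under the 1 FPKM of the filter. Across Acta2, Actg2, Tagln and Tpm2 the lowest of the knockout values was in replicate 3, and the lowest of the wildtype values was in replicate 2.

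Tpm1 had 50.7, 50.8 and 48.0 FPKM in knockout cultures, against 90.9, 71.5 and 93.0 FPKM in wildtype cultures. It stayed the most abundant member per length in both groups, and the change was the least of the 5 that passed (log2 fold change -0.75, SE 0.21, adjusted p = 0.0471). That call was narrow. It was lost without any 1 of wildtype replicates 1 and 3 or knockout replicates 1, 2 and 3 (adjusted p = 0.114, 0.136, 0.0894, 0.112 and 0.152).

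Myl9 had 8.23, 9.92 and 4.75 FPKM in knockout cultures, against 22.8, 15.1 and 23.2 FPKM in wildtype cultures. The groups did not overlap, but the difference did not pass (log2 fold change -1.33, SE 0.46, adjusted p = 0.124). Des had 1.104, 0.882 and 0.345 FPKM in knockout cultures and 2.48, 1.014 and 2.12 FPKM in wildtype cultures, which overlapped (-0.68, SE 0.23, adjusted p = 0.114). All 7 tested genes had an unadjusted p under 0.05. Of the untested genes, Cnn1 had 0.113 to 0.332 FPKM in knockout and 0.263 to 0.910 FPKM in wildtype cultures. Myh11 had 0.0622 to 0.266 FPKM in knockout and 0.240 to 0.815 FPKM in wildtype cultures. Pdlim3 was listed at 0 to 0.147 FPKM in knockout and 0.0492 to 0.269 FPKM in wildtype cultures. The cultures thus carried RNA of actins, tropomyosins and transgelin, with little RNA of the smooth muscle myosin heavy chain and of Pdlim3.

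The calls in the cultures depended on which libraries were in the fit. With the 6 culture libraries alone, 0 of the 7 genes passed (adjusted p = 0.0894 for Tpm1 to 0.194 for Acta2 among the 5), and without both libraries numbered 3, chosen after the data were seen, 3 passed.

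Fibroblast markers were lower in the knockout cultures as well: 7 of 10 tested fell, beside 5.84% of all genes tested. Their summed level was 190 to 323 FPKM in knockout and 445 to 839 FPKM in wildtype cultures. Dcn, decorin of the matrix, had 31.7, 34.5 and 17.7 FPKM in knockout cultures, against 105, 86.2 and 99.4 FPKM in wildtype cultures (log2 fold change -1.80, SE 0.32, adjusted p = 0.00232). Macrophage markers summed to 93.0 to 132 FPKM in knockout and 153 to 178 FPKM in wildtype cultures. Most of that came from the lysozyme gene Lyz2. Of 6 tested, 1 fell, Lyz2 itself, with 118, 91.6 and 75.9 FPKM in knockout, against 161, 156 and 140 FPKM in wildtype cultures (-0.69, SE 0.18, limma adjusted p = 0.0344). The 6 had a median log2 fold change of -0.02, with 3 of them below 0. Pericyte markers summed to 229 to 287 FPKM in knockout and 181 to 231 FPKM in wildtype cultures. That sum mainly follows Mcam, with 225 to 284 FPKM in knockout and 175 to 218 FPKM in wildtype cultures. Pdgfrb, a receptor gene and 1 of the 2 tested, had 1.36 to 2.90 FPKM in knockout and 5.37 to 10.1 FPKM in wildtype cultures. It fell (-1.31, SE 0.22, limma adjusted p = 0.00152). Apart from Mcam and Pdgfrb, the pericyte markers overlapped between knockout and wildtype cultures. The Sertoli markers summed to 9.34 to 11.7 FPKM in knockout and 10.7 to 18.5 FPKM in wildtype cultures. Leydig markers summed to 1.52 to 2.32 FPKM in knockout and 3.48 to 6.12 FPKM in wildtype cultures, without overlap, and 0 of the 2 tested passed. Endothelial markers summed to 3.75 to 8.62 FPKM in knockout and 3.35 to 4.72 FPKM in wildtype cultures. The part of these cells in the result was not tested.

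**Figure D2:**
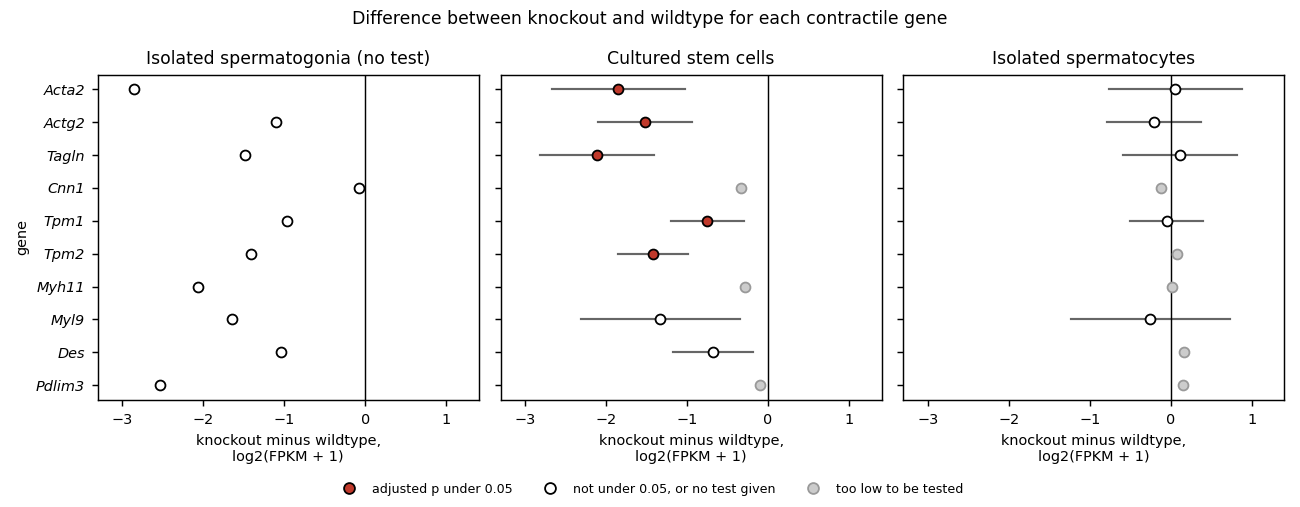
Each row is a gene and the horizontal axis is the log2(FPKM + 1) difference, knockout minus wildtype, with bars for the 95% interval of the fit where a gene was tested. In spermatogonia all 10 points lie below 0 (no test given), in cultured stem cells 5 filled points passed, and in spermatocytes the 5 intervals all include 0.

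In isolated spermatocytes the contractile genes were near the floor of the data, apart from Actg2. Only 5 of the 10 genes could be tested and 0 passed, with 0 at an unadjusted p under 0.05 in limma, the tool that was run. Of all 10271 genes tested, 0 rose and 0.00974% fell. All 10 genes overlapped between knockout and wildtype libraries, while 5.84% of all genes had every knockout library below every wildtype library.

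Actg2 had 12.9, 16.2 and 25.0 FPKM in knockout spermatocytes and 18.9, 24.3 and 18.0 FPKM in wildtype spermatocytes. The groups overlapped (log2 fold change -0.21, 95% interval -0.79 to 0.37, adjusted p = 0.999). Acta2 had 0.763, 2.57 and 3.96 FPKM in knockout and 1.80, 2.13 and 2.18 FPKM in wildtype spermatocytes (0.06, interval -0.77 to 0.88). Myl9 had 0.253, 1.67 and 6.42 FPKM in knockout and 2.35, 3.70 and 1.69 FPKM in wildtype spermatocytes (-0.26, interval -1.24 to 0.72). For these genes the knockout libraries spread more widely than the wildtype ones. Knockout replicate 1 was the lowest, and replicate 3 the highest, of the 3 knockout libraries for every gene of the set but Cnn1. Tagln and Tpm1 reached at most 2.02 and 2.29 FPKM, and Cnn1, Tpm2, Myh11, Des and Pdlim3 stayed under 1 FPKM in every spermatocyte library.

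Somatic markers were uneven among the same knockout libraries. The Sertoli gene Clu, a secreted chaperone, had 9.67, 9.86 and 63.2 FPKM in knockout and 10.4, 27.9 and 11.4 FPKM in wildtype spermatocytes. The Leydig hormone gene Insl3 had 10.9, 81.8 and 98.0 FPKM in knockout and 8.79, 12.4 and 45.0 FPKM in wildtype spermatocytes. Over the whole lists, Sertoli markers summed to 15.1 to 84.6 FPKM in knockout and 16.2 to 38.2 FPKM in wildtype libraries, and Leydig markers to 12.7 to 112 FPKM in knockout and 10.7 to 51.7 FPKM in wildtype libraries. Fibroblast markers summed to 5.94 to 11.5 FPKM in knockout and 6.45 to 8.29 FPKM in wildtype libraries. Their part in the spread was not tested.

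The knockout effect was set against that in spermatocytes by a test of the difference itself. For Tagln the effect in cultures minus the effect in spermatocytes was -2.22 (SE 0.47, adjusted p = 0.0236). For Tpm2 it was -1.49 (SE 0.28, adjusted p = 0.0162). The other 5 tested genes did not pass, with Acta2 at -1.90 (SE 0.54, adjusted p = 0.107) and Actg2 at -1.31 (SE 0.38, adjusted p = 0.118). Of 13864 genes tested, 1.96% were called in this direction and 0.0577% in the other. Tpm2 did not exceed 0.387 FPKM in spermatocytes, where it could fall little on this scale. Tagln had 0.696 to 1.48 FPKM in wildtype spermatocytes, where a fall as large as its -2.11 in cultures was not possible. For both genes the test cannot tell a lesser effect in spermatocytes from this lack of room. With a pseudocount of 0.1 in place of 1, neither gene passed (adjusted p = 0.167 for Tagln and 0.171 for Tpm2).

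Between cell types of 1 genotype, most of the set was higher in cultured stem cells than in spermatocytes. Age, culture and cell type differ together in this comparison and cannot be told apart. In wildtype libraries 6 of 7 tested genes were higher in cultures (56.9% of all genes tested were) and 1, Actg2, was lower (33.2% were). Tpm2 and Des, which are among the 6, were tested through the cultures alone, since they stayed under 1 FPKM in every spermatocyte library. Tpm1 averaged 85.1 ± 11.8 FPKM in wildtype cultures and 1.15 ± 0.158 FPKM in wildtype spermatocytes (SD, n = 3 each), a log2 difference of 5.31 (SE 0.21, limma adjusted p = 2.07e-12). Tagln differed by 4.64, Acta2 by 3.69, Myl9 by 2.59, Tpm2 by 2.33 and Des by 1.26. Actg2 ran the other way, with 3.71 ± 1.77 FPKM in wildtype cultures and 20.4 ± 3.39 FPKM in wildtype spermatocytes (-2.26, SE 0.27, adjusted p = 1.095e-06). The median over all genes tested was 0.77 in this comparison, 0.37 after quantile normalization and 0.02 after median-ratio scaling.

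In knockout libraries the same comparison gave 5 genes higher in cultures (55.9% of all genes tested) and 1, Actg2, lower (33.3%). Tpm2, among the 5, was again tested through the cultures alone. The median over all genes was 0.67. Tpm1 differed by 4.62, Tagln by 2.42, Acta2 by 1.79, Myl9 by 1.52 and Tpm2 by 0.84. Des did not pass (0.42, SE 0.23, adjusted p = 0.0955). Actg2 had 0.559 ± 0.172 FPKM in knockout cultures and 18.1 ± 6.23 FPKM in knockout spermatocytes (-3.57, SE 0.27, adjusted p = 4.97e-09). The call of Myl9 was lost after quantile normalization (0.91, adjusted p = 0.0694) and median-ratio scaling (0.91, adjusted p = 0.0929).

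Ordered by group mean, wildtype spermatogonia were the highest group for 8 of the 10 genes. For Acta2, Tpm1, Myh11, Myl9, Des and Pdlim3 their libraries did not overlap those of the next group down. For Cnn1 they overlapped knockout spermatogonia, and for Tpm2 they overlapped wildtype cultures. The genes were chosen by their FPKM in knockout and wildtype spermatogonia, so this order is partly set by the choice. The share of all genes with such an order was not taken. Tagln was highest in wildtype cultures (54.6 ± 19.2 FPKM, SD, n = 3), above wildtype spermatogonia (28.1 ± 4.14 FPKM, SD, n = 2). Actg2 was highest in wildtype and knockout spermatocytes, whose ranges overlapped, and next in wildtype cultures. Knockout spermatogonia and knockout cultures overlapped for Acta2, Actg2, Tagln and Tpm2, and knockout cultures were the lowest group for Cnn1, Myh11 and Pdlim3.

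The make-up of the set shifted along with its level. In spermatogonia Tpm1 held 49.4% to 53.8% of the summed FPKM of the 10 genes in knockout libraries and 29.0% to 33.9% in wildtype libraries. Acta2 held 11.3% to 13.3% in knockout and 26.9% to 31.5% in wildtype libraries. In cultures Tpm1 held 50.6% to 73.2% of the sum in knockout and 37.8% to 45.3% in wildtype libraries, and Tagln held 10.1% to 18.7% in knockout and 21.8% to 29.6% in wildtype libraries. Tpm1, which many cells other than muscle also express, thus took a larger share in the knockout of both cell types. In spermatocytes Actg2 alone held 58.8% to 82.7% in knockout and 69.6% to 73.9% in wildtype libraries. Without Actg2 the set summed to 2.71, 7.36 and 17.5 FPKM in knockout spermatocytes and to 8.28, 8.59 and 7.22 FPKM in wildtype spermatocytes.

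**Figure D3:**
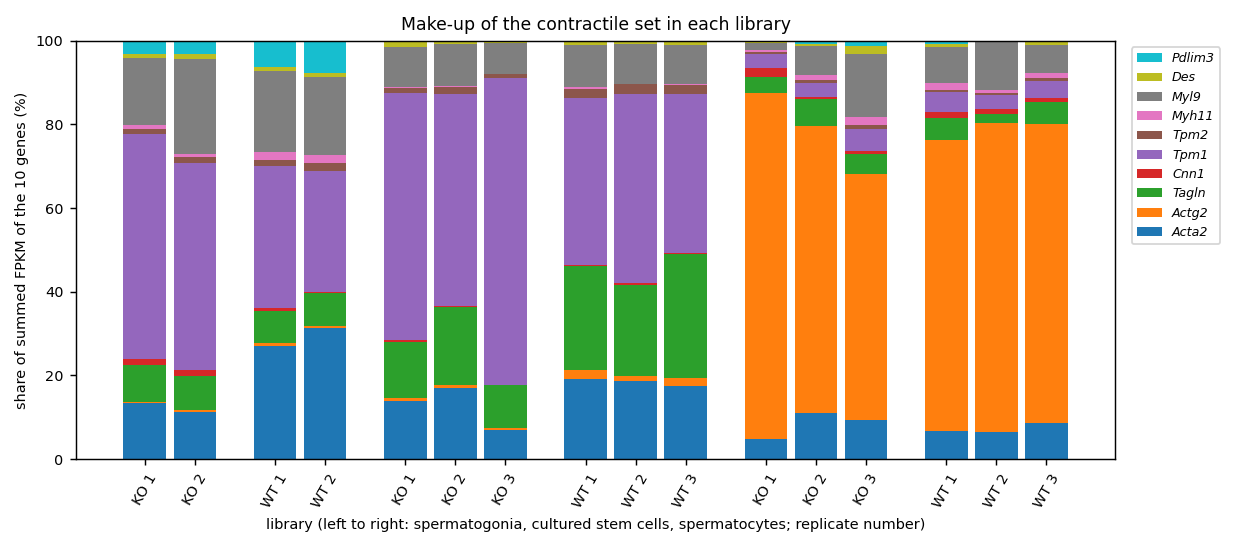
Each bar is 1 library and its colours give the percent of the summed FPKM of the 10 genes that each gene held, with knockout libraries left of wildtype ones in each cell type. Tpm1 is the widest band in knockout spermatogonia and in all cultures, and Actg2 holds 58.8% or more of every spermatocyte library.

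Acta2 and Myh11, both known for their place in mature smooth muscle, kept a similar ratio in spermatogonia: 14.6 and 18.1 in knockout and 14.5 and 16.9 in wildtype libraries. In cultures the ratio was 63.8 to 73.4 in knockout and 53.6 to 180 in wildtype libraries, so the cultures held less Myh11 RNA per Acta2 RNA. Myh11 had only 0.0622 to 0.815 FPKM in the cultures, under the 1 FPKM of the filter, which makes these ratios uncertain. Acta2 to Pdlim3 was likewise similar in spermatogonia, at 3.59 to 4.27 in knockout and 4.08 to 4.33 in wildtype libraries. Acta2 to Tpm1 differed, at 0.228 to 0.247 in knockout and 0.795 to 1.08 in wildtype spermatogonia.

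Several members have a close partner that most cells use, and the pairs were set side by side in spermatogonia and cultures. In spermatogonia the ratios use the values by which the members were chosen, so lower ratios there follow in part from the choice. No share over other gene pairs was taken. Acta2 reached 1.87% to 1.99% of Actb in knockout spermatogonia and 12.1% to 18.0% in wildtype spermatogonia. In cultures it reached 0.490% to 1.96% of Actb in knockout and 3.33% to 4.61% in wildtype libraries. Actb itself had 765 and 653 FPKM in knockout and 718 and 703 FPKM in wildtype spermatogonia (log2 fold change -0.01, SE 0.17, limma adjusted p = 0.986). In cultures Actb had 862, 866 and 933 FPKM in knockout and 948, 886 and 1045 FPKM in wildtype libraries (-0.11, SE 0.14, adjusted p = 0.741).

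Tagln was 32.0% of Tagln2, the transgelin of many other cells, in both knockout libraries of spermatogonia and 62.2% to 74.3% in the wildtype ones. In cultures it was 4.95% to 15.7% of Tagln2 in knockout and 27.2% to 59.7% in wildtype libraries. Myl9 was 16.1% to 28.5% of Myl12b, a light chain found in most cells, in knockout and 69.3% to 79.3% in wildtype spermatogonia. In cultures it was 4.29% to 9.98% in knockout and 14.7% to 23.7% in wildtype libraries. Relative to its partner, the muscle form was lower in the knockout libraries for Acta2, Tagln and Myl9 in both cell types, without overlap. The same held for Tpm1 over Tpm3, with 80.4% to 92.0% in knockout and 144% to 266% in wildtype spermatogonia, and 57.2% to 64.4% in knockout and 91.0% to 126% in wildtype cultures. It also held for Actg2 over Actg1, with 0.0863% to 0.146% in knockout and 0.411% to 0.533% in wildtype spermatogonia, and 0.0862% to 0.156% in knockout and 0.339% to 1.12% in wildtype cultures. The result for Tpm1 depends on its partner. Tpm4, another tropomyosin gene, was not used as one, and it fell in both cell types (log2 fold change -0.89 in spermatogonia and -1.15 in cultures). In cultures that fall was larger than the fall of Tpm1 (-0.75).

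In the other 3 pairs the picture was mixed. Myh11 was 1.74% to 2.54% of Myh9, a non-muscle myosin, in knockout and 12.5% to 16.1% in wildtype spermatogonia, but in cultures it was 0.171% to 0.519% in knockout and 0.419% to 0.970% in wildtype libraries, with overlap. Cnn1 over Cnn3 ran the other way in spermatogonia, at 1.12% to 1.19% in knockout and 0.822% to 1.101% in wildtype libraries, and overlapped in cultures, at 0.116% to 0.394% in knockout and 0.306% to 0.775% in wildtype libraries. Des, set against Vim, the intermediate filament gene of mesenchyme, was 0.683% to 0.769% of it in knockout and 0.945% to 1.27% in wildtype spermatogonia. In cultures it was 0.710% to 1.22% of Vim in knockout and 0.459% to 0.946% in wildtype libraries, with overlap. Vim itself had 90.7, 78.3 and 48.5 FPKM in knockout cultures, against 262, 221 and 239 FPKM in wildtype cultures (-1.76, SE 0.35, adjusted p = 0.00553).

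**Figure D4:**
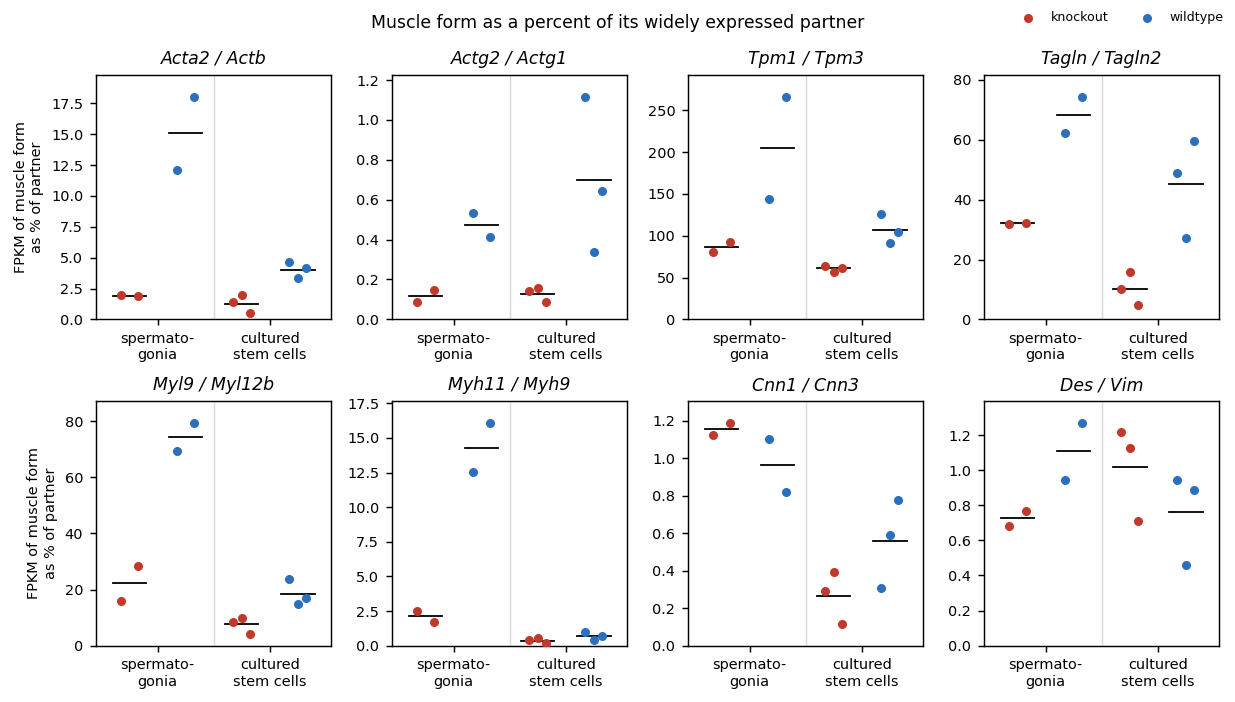
Each panel gives the FPKM of a member as a percent of that of its widely expressed partner, on a linear axis from 0; points are libraries, lines are group means, red is knockout and blue wildtype. Knockout points lie below wildtype points in both cell types in 5 of the 8 panels, Des over Vim and Myh11 over Myh9 overlap in the cultures, and Cnn1 over Cnn3 is higher in knockout spermatogonia. The spermatogonia points are a description, since the members were chosen by their values there.

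Beyond the 10 genes, 70 other genes of contraction were taken from 5 lists: thin filament, thick filament, dense bodies and adhesion, regulators of contractile genes, and calcium and signalling. In spermatogonia 17 of the 61 tested fell in the knockout and 0 rose, with a median log2 fold change of -0.40 (all genes tested: 5.76% fell, median -0.06). Of the 17, 5 were under 1 FPKM in every knockout library and so were tested through wildtype libraries alone: Lmod1, Nexn, Itga8, Gucy1a3 and Ednrb, the last 4 named after their values were seen. The count was 6 with a pseudocount of 0.1 and 0 with the 4 spermatogonia libraries alone in the fit. It was 10 and 11 without wildtype replicates 1 and 2, and 11 and 9 without knockout replicates 1 and 2. In cultures 10 of 53 fell and 0 rose, with a median of -0.08 (all genes tested: 5.84% fell, median -0.02), and 2 of the 10, Ednra and Pdlim2, were tested through wildtype libraries alone. That count was 3 with a pseudocount of 0.1 and 0 with the 6 culture libraries alone. In spermatocytes 0 of 32 passed, with 2 at an unadjusted p under 0.05 in limma.

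Of 10 other thin filament genes, 4 fell in knockout spermatogonia, beside 5.76% of all genes tested. Cald1, caldesmon, which restrains actin and myosin, had 2.70 and 1.88 FPKM in knockout, against 9.29 and 12.1 FPKM in wildtype spermatogonia (-1.83, SE 0.27, adjusted p = 0.000788). Lmod1, the leiomodin that nucleates actin in smooth muscle, had 0.150 and 0.122 FPKM in knockout, against 1.28 and 1.42 FPKM in wildtype spermatogonia (-1.05, adjusted p = 4.80e-05), a gene tested through its wildtype libraries alone. The other two that fell were Cnn2 (-0.98) and Tpm4 (-0.89). In cultures 2 of 9 fell, beside 5.84% of all genes tested. Cald1 had 9.54, 10.5 and 6.16 FPKM in knockout cultures, against 37.4, 28.8 and 29.1 FPKM in wildtype cultures (-1.77, SE 0.22, adjusted p = 0.000199), and Tpm4 fell by 1.15 on the log2 scale (adjusted p = 0.00172). Actg1, the second cytoplasmic actin, did not pass in either (-0.17 and -0.30).

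Of 9 other thick filament genes, 1 fell in spermatogonia (Mylk) and 1 in cultures (Myl6). Of all genes tested, 5.76% fell in spermatogonia and 5.84% in cultures, and the difference between the cell types was not tested. Mylk, the kinase that switches myosin on, had 4.24 and 4.86 FPKM in knockout, against 11.4 and 13.1 FPKM in wildtype spermatogonia (-1.26, SE 0.21, adjusted p = 0.00242). In cultures Mylk had 1.43, 2.08 and 1.86 FPKM in knockout and 2.55, 1.43 and 1.201 FPKM in wildtype libraries (0.06, SE 0.18, adjusted p = 0.904). Myl6, an essential light chain, had 11.1 and 9.13 FPKM in knockout and 16.02 and 16.2 FPKM in wildtype spermatogonia, without overlap (-0.63, SE 0.23, adjusted p = 0.136). In cultures it fell, with 5.88, 7.60 and 8.21 FPKM in knockout, against 13.0, 10.7 and 19.7 FPKM in wildtype cultures (-0.88, SE 0.19, adjusted p = 0.0103).

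Of the dense body and adhesion genes, 5 of 21 fell in spermatogonia (beside 5.76% of all genes tested) and 6 of 20 in cultures (beside 5.84%). In knockout libraries 2 of the 5 and 1 of the 6 were under 1 FPKM throughout. Fhl2, a LIM protein of focal adhesions, had 6.95 and 8.68 FPKM in knockout, against 20.0 and 32.1 FPKM in wildtype spermatogonia (-1.59, SE 0.20, adjusted p = 0.000299). In cultures Fhl2 had 2.53, 2.54 and 2.39 FPKM in knockout, against 5.47, 5.21 and 5.50 FPKM in wildtype libraries (-0.88, SE 0.17, adjusted p = 0.00390). Pdlim1 and Csrp1 also fell in spermatogonia (-1.35 and -0.86), and Vim, Actn1 and Pdlim5 fell in cultures (-1.76, -0.72 and -0.56). Of the calcium and signalling genes, 5 of 12 fell in spermatogonia, among them Casq2, which stores calcium in the sarcoplasmic reticulum, and Ednra, an endothelin receptor. Casq2 had 1.499 and 0.911 FPKM in knockout, against 7.06 and 14.5 FPKM in wildtype spermatogonia (-2.35, SE 0.22, adjusted p = 3.33e-05). Ednra had 2.70 and 3.09 FPKM in knockout, against 9.97 and 18.4 FPKM in wildtype spermatogonia (-1.91, SE 0.22, adjusted p = 0.000135). Ednra was also the 1 of 8 that passed in cultures (-0.91, adjusted p = 0.00572), where all knockout values were under 1 FPKM and the wildtype libraries alone brought it into the test.

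Srf had 46.1 and 46.0 FPKM in knockout and 54.7 and 57.8 FPKM in wildtype spermatogonia (-0.28, SE 0.17, adjusted p = 0.390). In cultures it had 25.7, 28.5 and 34.0 FPKM in knockout and 28.2, 28.0 and 25.5 FPKM in wildtype libraries (0.10, SE 0.14, adjusted p = 0.768). Myocd, myocardin, was low in every library, with 0.0747 and 0.0616 FPKM in knockout and 0.393 and 0.573 FPKM in wildtype spermatogonia, and was not tested. Of 9 regulators tested in spermatogonia 2 fell (beside 5.76% of all genes tested), the transcription factor genes Tead1 (-0.74, adjusted p = 0.0425) and Mef2c (-0.50, adjusted p = 0.0466). Of 7 in cultures 0 passed.

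Promoters were searched for CArG boxes on both strands, from 250 bases before to 50 bases after each RefSeq start on GRCm38.p6. The table held 7 of the 10 genes. Only exact matches of 10 bases were counted: CC, then A or T bases alone, then GG. A box with any other base would be missed, so a window without a match may still hold one. An exact CArG box lay in the window of 1 of them, Myl9, and in 535 of all 32851 windows (1.63%). In Myl9 it lay 161 to 152 bases before the start. The 250 bases before the start (chr2:156775214-156775463, plus strand) are given with the box in capitals.
Myl9: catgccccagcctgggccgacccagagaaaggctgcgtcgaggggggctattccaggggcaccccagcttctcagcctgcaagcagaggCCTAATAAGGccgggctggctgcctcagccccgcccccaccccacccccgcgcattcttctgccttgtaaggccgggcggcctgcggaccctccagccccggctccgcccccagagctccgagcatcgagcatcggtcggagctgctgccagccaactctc
The search describes letters in a window and says nothing of binding.

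Among 14513 genes, the 5 named genes whose pattern over the 16 libraries was nearest to that of Acta2 were Timp3, Myl9, Col6a2, Igfbp7 and Oaf. Unnamed gene models were passed over here and for Myh11, while the places given below count all genes. Likeness was the root mean square difference of log2(FPKM + 1), each gene centred on its own mean, and these genes had values of 0.574 to 0.591. Myl9 was thus the nearest member, at place 2, and Tagln followed at place 27 (0.717) and Tpm2 at place 136 (0.885). Igfbp7, a secreted protein that binds insulin-like growth factors, had 41.9 ± 4.13 FPKM in knockout and 115 ± 19.7 FPKM in wildtype spermatogonia (SD, n = 2 each). In cultures it had 22.7 ± 7.48 FPKM in knockout and 93.2 ± 8.85 FPKM in wildtype libraries (SD, n = 3 each). Nearest to Myh11 were Col4a3, Fgl2, C1qtnf7, S1pr3 and Gucy1a3 (0.208 to 0.261), none of them a member. Col4a3, a basement membrane collagen, had 0.551 ± 0.118 FPKM in knockout and 4.51 ± 0.915 FPKM in wildtype spermatogonia (SD, n = 2 each), and its mean stayed under 0.12 FPKM in the other 4 groups. Acta2 and Myh11 thus had none of these named genes in common, and Myh11 lay at place 4560 from Acta2.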

How the data were processed

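RNA of 16 mouse libraries was extracted with TRIzol, made into libraries with a directional NEBNext Ultra kit and sequenced on a HiSeq-X10, per the labels' protocols. The FPKM values are the authors' and were used as deposited; mouse build mm9, Cufflinks 2.0.2 and TopHat2 2.0.6 are named, per the submitters' processing notes, without roles or settings. Each library listed 23021 rows, which were joined by symbol; 259 repeated symbols (728 rows) were left out. The sources used here give no read counts. The 16 libraries entered 1 limma fit of log2(FPKM + 1), with a mean for each group, a trended prior variance and two-sided tests, over 14480 genes and with 10 residual degrees of freedom (limma 3.58.1 under R 4.3.3). This scale understates changes of low genes. A gene was tested when it reached 1 FPKM in 2 libraries of a cell type, and in either one for comparisons between cell types. Adjustment over all genes tested followed Benjamini and Hochberg, with a threshold of 0.05. The method was tested on simulated data, with changes placed only in genes above a minimum wildtype mean, so that run does not cover genes near the floor. Tables and figures used Python 3.11.15, pandas 2.3.3 and matplotlib 3.10.9, and coding sequences were aligned with Biopython 1.88.

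The genes, lists and tests were chosen with earlier results of these data known. All 10 members were named. Of each contraction list, up to 4 genes with the smallest passing p and a group mean of 5 FPKM or more were named, plus Srf, Myocd, Mylk, Lmod1, Cald1, Actb and Actg1. Of each cell type list, up to 3 genes with the highest FPKM could be named. Where a count of 5 or fewer is spelled out, further names (Ednra in cultures, Lyz2, Pdgfrb and Tnnt2) were chosen after their values were seen. Alternatives were a pseudocount of 0.1, no filter, quantile normalization, median-ratio scaling, only the groups compared, a replicate block and leaving out libraries.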

Additional observations from a re-analysis of the deposited data

Results flagged for a closer look

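The interaction term of the limma fit, knockout effect by cell type, passed for Tagln and Tpm2, though neither call was stable. Both were lost with a pseudocount of 0.1 (adjusted p = 0.167 for Tagln and 0.171 for Tpm2) and with the replicate block (0.0991 and 0.0531). Tpm2 was also lost after quantile normalization (0.0563), and Tagln with only the compared groups in the fit (0.0593). For Tagln the effect in cultured stem cells minus that in spermatocytes was -2.22 (SE 0.47, adjusted p = 0.0236), from -2.11 in cultures and 0.11 in spermatocytes. Every knockout culture was below every wildtype culture, while the spermatocyte libraries overlapped. The call was lost without any 1 of wildtype spermatocyte replicates 1, 2 and 3 (adjusted p = 0.0524, 0.0697 and 0.0523), knockout spermatocyte replicates 2 and 3 (0.0565 and 0.0656), wildtype culture replicate 1 (0.0611) and knockout culture replicate 3 (0.0567). For Tpm2 the difference was -1.49 (SE 0.28, adjusted p = 0.0162), and the call was lost without wildtype spermatocyte replicate 1 (adjusted p = 0.0522). Tpm2 was at most 0.387 FPKM in spermatocytes, where log2(FPKM + 1) leaves almost no room for a fall. Tagln, with 0.696 to 1.48 FPKM in wildtype spermatocytes, had no room there for a fall as large as in cultures. The interaction term therefore cannot tell a lesser knockout effect in spermatocytes from a low level.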

How the results depend on the processing

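No result changed sign where it had been called. With a pseudocount of 0.1, the contraction genes that fell numbered 6 in spermatogonia, against 17, and 3 in cultures, against 10, the median of the 10 members in spermatogonia was -1.76, and 0 members passed the test of the difference between effects, against 2. With only the compared groups in the fit, 0 contraction genes passed in spermatogonia, 0 members and 0 contraction genes passed in cultures, and 1 member passed the test of the difference. After quantile normalization 1 member passed that test. Without filter 4 of all 10 members fell in cultures. Leaving out 1 library gave 9 to 11 contraction genes in spermatogonia, 7 to 11 in cultures, 4 to 6 members in cultures and 0 to 3 members for the difference. Des passed in cultures without wildtype replicate 2 (adjusted p = 0.0264), and Cnn1 in spermatogonia ranged from -0.30 to 0.15. Without both cultures numbered 3, an alternative chosen after the data were seen, 3 members fell in cultures, and Acta2 did not pass (-1.27, adjusted p = 0.0885).

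Same-numbered knockout and wildtype libraries did not consistently deviate together: their correlations were -0.124 in spermatogonia, -0.321 to 0.252 in spermatocytes and -0.065 to 0.225 in cultures. With so few libraries in a group, these values cannot tell whether the numbers pair the samples. With the replicate block, 4 members and 9 contraction genes fell in cultures, 14 contraction genes fell in spermatogonia, and 0 members passed the test of the difference. Crossing the pairs in spermatogonia, added after the data were seen, gave 15 contraction genes. Read depth is unknown, which limits what can be said of genes under 1 FPKM.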

Other observations

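Spermatogonia and spermatocyte marker lists gave no call between knockout and wildtype libraries in any of the 3 cell types. In isolated spermatogonia the spermatogonia markers summed to 932 to 1114 FPKM in knockout and 701 to 840 FPKM in wildtype libraries, and the spermatocyte markers to 146 to 190 FPKM in knockout and 110 to 129 FPKM in wildtype libraries.

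Actg2 was 2.23% to 4.38% of Actg1, the cytoplasmic gamma actin, in knockout spermatocytes and 2.57% to 4.51% in wildtype spermatocytes. The coding sequences of the pair were identical at 82.6% of aligned bases, with 26 bases in the longest shared run.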
